A study of Bos taurus with 8 samples.

Results

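The miR-130, miR-301 and miR-454 family in bovine sera and exosomes comprised bta-miR-130a, bta-miR-130b, bta-miR-301a, bta-miR-301b and bta-miR-454. These 5 miRNAs were chosen by name, and all 5 were among the 534 miRNAs listed in each library. Small RNA had been sequenced from 4 healthy lactating Holstein dairy cows, with 1 library from the serum of each cow (sera) and 1 library from exosomes, small membrane vesicles, isolated from the same serum. No cow was treated, so the comparison was of 4 sera libraries with 4 exosome libraries. Exosomes were isolated with a commercial kit from a larger serum volume, and the RNA of sera and exosomes was extracted with kits of different makers, so that sample type, volume and kit cannot be told apart. A serum library could also hold the RNA of the exosomes in that serum. The level of a miRNA is given in RPM, its reads scaled to a fixed total of miRNA reads in each library, and is therefore relative to the other miRNAs of that library rather than an amount of RNA per volume of serum.

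A miRNA guides the silencing machinery to messenger RNAs mainly through its seed, a short stretch near its 5′ end. The members of this family carry the same seed and differ in the rest of the mature sequence, so their predicted targets largely overlap. MiR-130a is known from blood progenitor and endothelial cells, where it represses the transcription factors GAX and HOXA5. MiR-130a and miR-130b repress PPARG, the main transcription factor of fat cell formation. MiR-301a is known as an activator of NF-κB signalling through repression of the inhibitor NKRF. In the RefSeq gene table of the ARS-UCD2.0 assembly, in which all 5 genes were found, the family lay at 3 loci. MIR130B and MIR301B were direct neighbours, MIR454 and MIR301A were neighbours inside SKA2, a gene for a spindle protein, and MIR130A stood apart, next to YPEL4.

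The number of reads behind each RPM value was recovered from the step between the values of a library. The sera libraries held 264769 to 590162 miRNA reads and the exosome libraries 60682 to 157710. For sera, 3 reads corresponded to 5.08 to 11.3 RPM, and for exosomes to 19.0 to 49.4 RPM. The counting intervals below are exact 95% intervals and cover counting error only, since copies made by PCR are not independent molecules. Cow 1 stood apart in striated muscle miRNAs. Of the 7 on the list, only 4 passed the filter for expressed miRNAs, and miR-206 was listed at 0 in all libraries. The summed level of all 7 was 23108 RPM in the serum of cow 1 and 26301 RPM in its exosomes. It was 164 to 355 RPM in the other 6 libraries. Values without cow 1 are therefore also given for the summed level, the fold changes, the share of miR-301a, the test between cows, the spread and the likeness. Red cell miRNAs (6 of 6 listed) summed to 22.9% to 32.5% of the miRNA reads in sera and to 26.9% to 49.1% in exosomes. The sum does not show the direction of each miRNA. Of these 6, 2 passed both thresholds of the limma test described below towards sera, and 0 towards exosomes. Among all tested miRNAs 3.01% and 1.37% did so. The platelet and leukocyte list (6 of 6 listed) held 3.05% to 3.97% in sera and 3.18% to 4.62% in exosomes, and the liver miRNA miR-122 lay between 13.5 and 108 RPM for sera and between 0 and 48.8 RPM for exosomes. The part of these shares in the levels of the family was not tested.

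Together the 5 members made up a small share of the miRNA reads. Their summed level in sera was 3305, 2621, 3803 and 2909 RPM in cows 1 to 4, with 883 to 1547 reads in each library. In exosomes it was 2851, 2238, 3075 and 2086 RPM, with 173 to 329 reads. The mean was 3160 ± 512 RPM for sera and 2562 ± 475 RPM for exosomes (SD, n = 4). The sum was higher in sera in 4 of 4 cows, but the ranges overlapped, and no test was made of a sum over chosen members. The difference of 597 RPM was 645 RPM without cow 1, 383 RPM without the serum of cow 3 and 177 RPM when RPM was rescaled with TMM, a scaling that assumes most miRNAs do not differ.

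MiR-301a was the most abundant member in each of the 8 libraries. Its level in sera was 1239, 1264, 1481 and 1090 RPM in cows 1 to 4. In exosomes it was 1088, 1170, 1347 and 1078 RPM. The 8 values lay close together, with the highest only 1.37 times the lowest, and cow 3 was highest in both sample types.

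MiR-454, which shares its locus with miR-301a, was nearly absent from the reads. It had 5, 3, 4 and 4 reads in the sera of cows 1 to 4, which made 18.7, 5.1, 15.1 and 9.0 RPM. In exosomes it had 1, 1, 1 and 4 reads, which made 16.5, 7.8, 9.8 and 25.4 RPM. The level of miR-301a was 66.3 to 248 times that of miR-454 in sera and 42.4 to 150 times in exosomes. With so few reads these ratios are imprecise, and the exosome library of cow 1, with 1 read, allowed a level of miR-454 from 0.417 to 91.8 RPM.

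MiR-130b was the second most abundant member by mean level. In sera it had 1029, 778, 1454 and 790 RPM in cows 1 to 4, and in exosomes 956, 585, 1015 and 507 RPM. Cows 1 and 3 were above cows 2 and 4 in both sample types. Its neighbour miR-301b was lower in every library, with 292, 154, 295 and 119 RPM in sera and 132, 187, 449 and 95.1 RPM in exosomes. The exosome library of cow 1 held 8 reads of miR-301b, with a counting interval of 56.9 to 260 RPM. MiR-130b was 3.53 to 6.64 times as abundant as miR-301b in sera and 2.26 to 7.25 times in exosomes, so the ratio between the 2 neighbours overlapped between the sample types.

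MiR-130a had 726, 420, 559 and 902 RPM in the sera of cows 1 to 4, from 148 to 402 reads. In exosomes it had 659, 288, 254 and 380 RPM, from 26 to 60 reads. The exosome library of cow 1 stood above the other 3 exosome libraries and above the sera of cows 2 and 3, so the groups overlapped. In their libraries miR-301a ranked between 61 and 74 by level, miR-130b between 71 and 88, miR-130a between 80 and 120, miR-301b between 100 and 147 and miR-454 between 199 and 268.

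**Figure D1:**
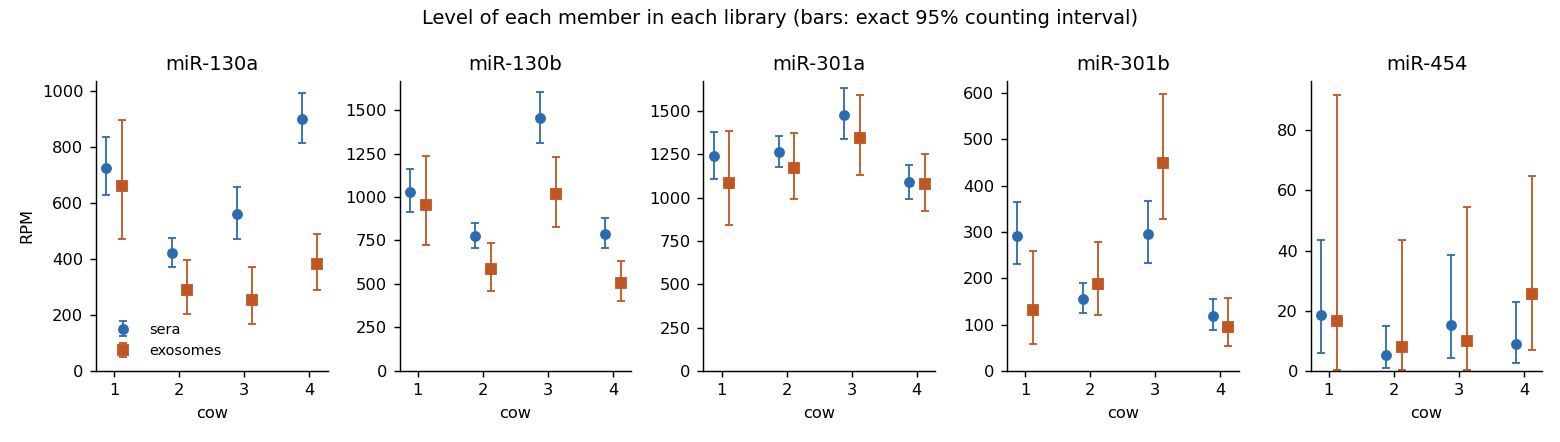
Level of each member in RPM (vertical axis, scale differs between panels) by cow (horizontal axis) in sera (circles) and exosomes (squares), with exact 95% counting intervals as bars. MiR-301a stayed between 1078 and 1481 RPM in all 8 libraries, and miR-130a was higher in the serum than in the exosomes of each cow. The intervals of miR-454 were wide for its level, the widest from 0.417 to 91.8 RPM in the exosomes of cow 1.

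The comparison of sera with exosomes asks whether a miRNA takes a different share of the miRNA reads in the vesicles than in whole serum. The test was limma on log2(RPM + 1), run over all 365 expressed miRNAs. A call needed a log2 fold change (FC) outside -1 to 1 together with a false discovery rate (FDR) below 0.05. None of the 5 members passed both thresholds. Over all tested miRNAs 3.01% were higher in sera and 1.37% higher in exosomes by this rule. The number of members was also 0 when the p below 0.05 was unadjusted and the FC limit kept, and edgeR and DESeq2 on the recovered reads likewise called 0 members, with or without the cow as a replicate block. The median log2 FC (sera minus exosomes) was 0.14 over the 5 members and 0.57 over all 365 miRNAs. For the 128 miRNAs that reached 10 reads in all 8 libraries the median was 0.31, and for the 3 members among them 0.42.

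MiR-130a had the largest log2 FC of the family by limma over the 8 libraries, while by edgeR with TMM and by DESeq2 that of the sparsely read miR-454 was larger (-0.66 and -0.76, against 0.58 and 0.45 for miR-130a). It averaged 652 ± 208.3 RPM over the sera and 395 ± 184 RPM over the exosomes (SD, n = 4). Limma gave a log2 FC of 0.76 (standard error 0.33, 95% interval 0.05 to 1.48, FDR = 0.167). The serum had the higher level in 4 of 4 cows, by 1.10, 1.46, 2.20 and 2.37 times in cows 1 to 4. Being higher in sera in 4 of 4 cows was common, with 30.7% of the tested miRNAs. When the cow entered as a replicate block, limma gave miR-130a an FDR of 0.000213 and edgeR with TMM an FDR of 0.0103 (log2 FC of 0.59), so that the call on the FDR, but not that on the FC, changed with the block. By DESeq2 with the block it was 0.148. The blocked limma fit pooled the variance fully over miRNAs of like level, so its FDRs and intervals do not rest on the spread of the member itself. By FDR alone, 23.0% (limma) and 15.1% (edgeR) of the tested miRNAs were higher in sera in these blocked fits, and 7.95% and 3.56% with the FC limit added. When the exosome library of cow 1 was left out, miR-130a passed both thresholds of limma without the block, at log2 FC = 1.04 and FDR = 0.0491. Without both libraries of cow 1 the log2 FC was 0.97 and the FDR 0.117.

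MiR-130b averaged 1013 ± 316 RPM over the sera and 766 ± 257 RPM over the exosomes (SD, n = 4). Its log2 FC by limma was 0.42 (standard error 0.29, 95% interval -0.20 to 1.03, FDR = 0.393). It too was higher in the serum of 4 of 4 cows, by 1.08 to 1.56 times. In the blocked fits on RPM or library totals its FDR was 0.0259 by limma and 0.031 by edgeR, and with TMM it was 0.339 and 0.44, so the call on the FDR was lost with this scaling in both tests. Without both libraries of cow 1 the log2 FC was 0.52 (FDR = 0.345 by limma without the block). Like miR-130a it kept its direction in all 23 alternatives.

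For miR-301a the difference was small. The means were 1268 ± 161 RPM for the sera and 1171 ± 125 RPM for the exosomes (SD, n = 4). The log2 FC of 0.11 (standard error 0.19, FDR = 0.767 by limma) turned to -0.09 after rescaling with TMM. It was 0.09 without cow 1. The serum level was 1.14, 1.08, 1.10 and 1.011 times the exosome level in cows 1 to 4. The 95% interval of the log2 FC, -0.30 to 0.52, lay inside the limits of -1 and 1. With the block the FDR was 0.597 by limma.

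MiR-301b and miR-454 had no common direction over the cows. The sera averaged 215 ± 91.6 RPM of miR-301b and the exosomes 216 ± 160 RPM (SD, n = 4), with the higher level in the serum of cows 1 and 4 and in the exosomes of cows 2 and 3. Its log2 FC was 0.14 by limma (standard error 0.48, 95% interval -0.89 to 1.18, FDR = 0.887), -0.06 after rescaling with TMM and -0.19 without both libraries of cow 1, the cow with the largest ratio of serum to exosomes (2.21). MiR-454 had 16 reads over the 4 sera and 7 over the 4 exosome libraries, with a log2 FC of -0.30 (standard error 0.84, 95% interval -2.10 to 1.51, FDR = 0.86 by limma), and of -0.45 without cow 1. At this depth a difference in miR-454 of even several times was not detectable.

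**Figure D2:**
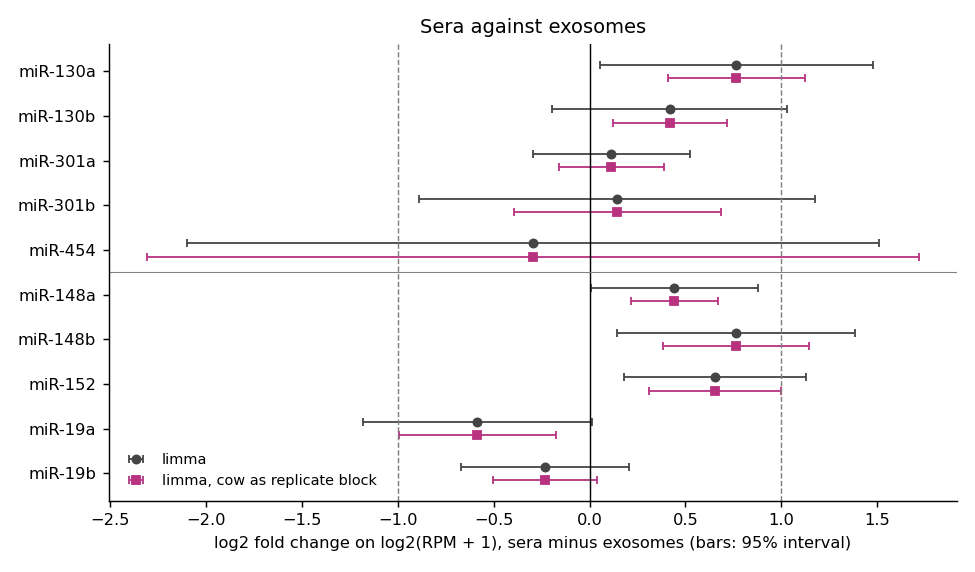
Log2 fold change on log2(RPM + 1), sera minus exosomes (horizontal axis), for the 5 members (above the line) and 5 miRNAs with an overlapping seed (below the line). Points show the limma estimate without (circles) and with (squares) the cow as a replicate block, bars are 95% intervals (with the block from a variance pooled over miRNAs), and dashed lines mark the limits of -1 and 1. All estimates lay inside the limits, from -0.59 for miR-19a to 0.76 for miR-130a.

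The make-up of the family was compared by the share of each member in the summed level. MiR-301a made up 40.5% ± 5.18 of the summed level in sera and 46.5% ± 6.76 in exosomes (SD, n = 4), with the higher share in the exosomes of 4 of 4 cows. Without cow 1 its mean share was 41.5% and 49.2%. The share of miR-130b was 31.5% ± 4.75 and 29.2% ± 4.71, and that of miR-130a 20.9% ± 7.42 and 15.6% ± 6.45 (SD, n = 4). MiR-301b contributed 6.64% ± 2.09 and 8.04% ± 4.72, and miR-454 0.367% ± 0.157 and 0.616% ± 0.418 (SD, n = 4). The ranges of every share overlapped between sera and exosomes. The share of miR-130a ranged most, from 8.25% in the exosomes of cow 3 to 31.0% in the serum of cow 4. Within cows, miR-130a over miR-130b was higher in serum in 4 of 4. For cows 1 to 4 this ratio came to 0.705, 0.54, 0.384 and 1.14 with serum, against 0.69, 0.493, 0.25 and 0.75 with exosomes. In cow 1 it thus hardly differed. The other ratios taken between members were higher in serum in 1 to 3 of 4 cows. Shares of a sum are not independent of each other, and no test was made of them.

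**Figure D3:**
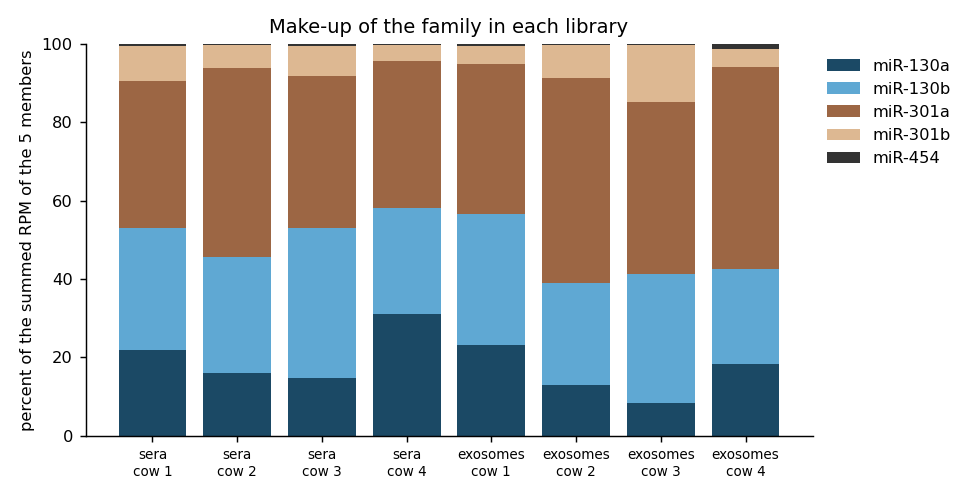
Percent of the summed RPM of the 5 members held by each member (stacked bars, vertical axis) in each library (horizontal axis). MiR-301a and miR-130b together form the larger part of each bar, and the dark lowest segment, miR-130a, runs from 8.25% to 31.0%.

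Because serum and exosomes came from the same animals, the members could also be compared between cows. The cow was tested over all 8 libraries with limma's moderated F-test, with the sample type in the model and an FDR under 0.05. Of the 5 members 3 differed between cows, miR-130b (FDR = 7.4e-05), miR-130a and miR-301b (FDR = 0.000744 for each). MiR-301a (FDR = 0.461) and miR-454 (FDR = 0.877) did not pass. Of all 365 miRNAs tested 25.5% passed, while in the set of 128 that reached 10 reads in all 8 libraries 59.4% did, a share close to the 2 of 3 members of that set. As in the blocked fit, these FDRs rest on a variance pooled over miRNAs. By edgeR on the recovered reads the FDR was 0.0289 for miR-130b, 0.00345 for miR-130a and 0.000365 for miR-301b, where 24.7% of all miRNAs passed.

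By the mean over the serum and the exosome library, miR-130b, miR-301a and miR-301b were each highest in cow 3 and lowest in cow 4. With serum alone, miR-130b was slightly lower in cow 2 (778 RPM) than in cow 4 (790 RPM). MiR-130a had another order of cows. Relative to the mean of each sample type on the log2 scale, miR-130a stood at 0.53 in cow 1 and 0.29 in cow 4 (mean of the serum and the exosome library), and at -0.46 in cow 2 and -0.35 in cow 3. MiR-130b stood at 0.52 in cow 3 and 0.23 in cow 1, and at -0.33 in cow 2 and -0.42 in cow 4. MiR-301b, the neighbour of miR-130b, was also highest in cow 3, at 0.94, and lowest in cow 4, at -0.83. In cow 1 its libraries went apart, with 0.55 in serum and -0.45 in exosomes, the latter from 8 reads. MiR-301a stayed between -0.16 in cow 4 and 0.22 in cow 3. Whether the order differs between members was not tested.

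The call for miR-301b rested on the exosome libraries of cows 3 and 4. Without that of cow 3 its FDR was 0.213, and without that of cow 4 it was 0.0602 (limma F-test). For miR-130a the FDR was 0.06 by DESeq2, by which 18.1% of all miRNAs passed. Without both libraries of cow 1 the same 3 members passed, with an FDR of 0.0187 for miR-130a, and 23.6% of all miRNAs did. With 1 blood sample from each cow, the animal and the blood sample cannot be told apart.

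**Figure D4:**
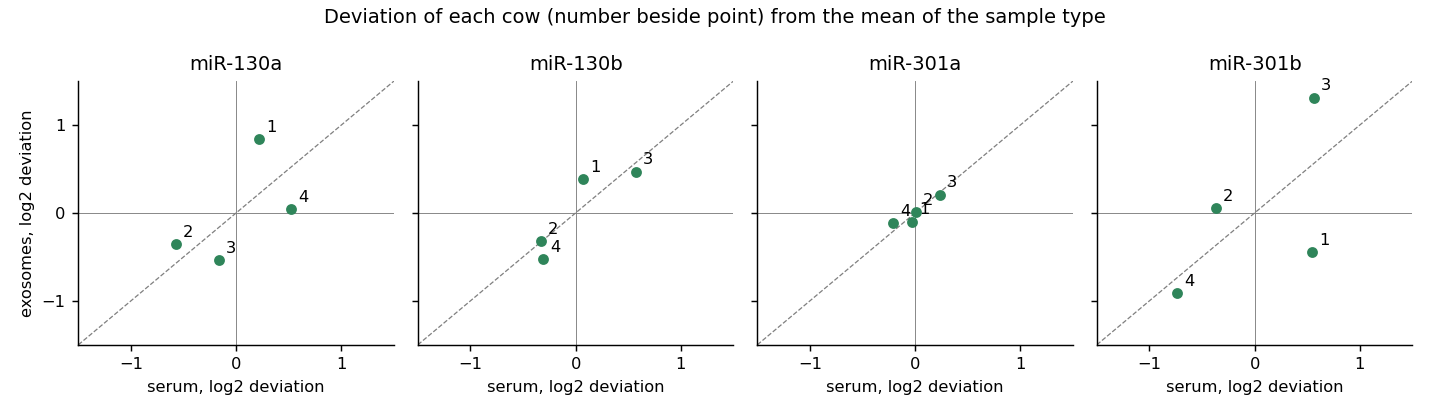
Deviation of each cow from the mean of the sample type, on the scale of log2(RPM + 1), in serum (horizontal axis) and in exosomes (vertical axis) for the 4 members with more than a few reads. The number beside a point is the cow, and the dashed line marks equal deviations. Points of miR-130b lie near the line from cow 4 at -0.31 and -0.53 to cow 3 at 0.57 and 0.47, those of miR-301a cluster near 0, and cow 1 of miR-301b lies at 0.55 and -0.45.

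The spread of the members was compared with that of other miRNAs by the coefficient of variation (CV, SD over mean) of RPM over the 8 libraries. The median CV of the 128 miRNAs that reached 10 reads in all 8 libraries was 33.1%. MiR-301a had a CV of 11.7% and ranked 2 from the lowest, against 7.21% expected from counting alone. In sera its CV was 12.7% (rank 21) and in exosomes 10.7% (rank 8), where counting alone would give 9.26%. MiR-93, which served as the reference miRNA for RT-qPCR in the study, had a CV of 22.7% and rank 27. After rescaling with TMM the CV of miR-301a was 15.8% and its rank 13, and that of miR-93 27.2% and rank 58. Without both libraries of cow 1 the CV of miR-301a was 12.7% and its rank 3. MiR-130b, with a CV of 33.5% and rank 67, was near the median, and miR-130a, with 43.5% and rank 105, was above it. The place of miR-130b depended on the setting. Rescaling with TMM gave it 21.9% and rank 34 (median 28.9%), and leaving out cow 1 gave 40.1% and rank 93 (median 32.4%). MiR-130a had ranks 104 and 114 in these settings. MiR-301b and miR-454 did not reach 10 reads in every library and had CVs of 56.1% and 50.1%, against 17.5% and 71.9% from counting alone. The spread of miR-454 was thus no larger than counting error.

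**Figure D5:**
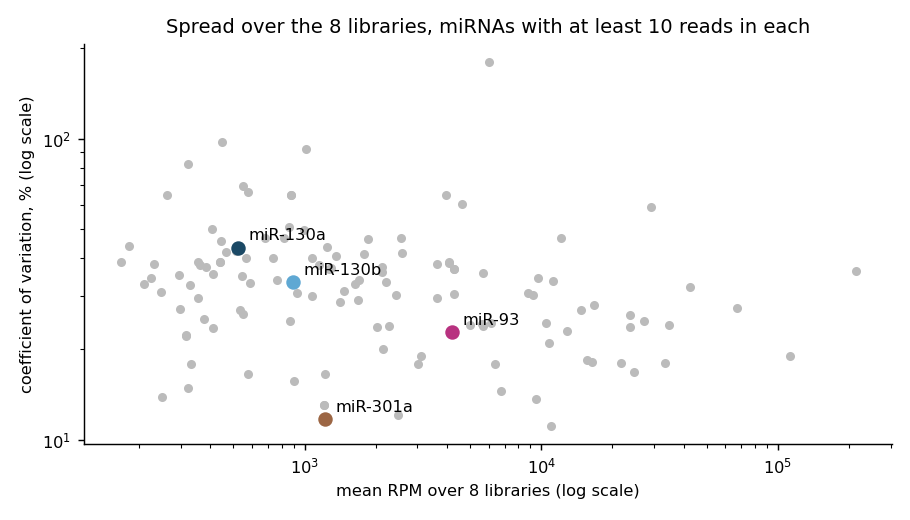
Coefficient of variation of RPM over the 8 libraries (vertical axis, log scale) against mean RPM (horizontal axis, log scale) for the 128 miRNAs that reached 10 reads in all 8 libraries. The 3 members in this set and miR-93 are coloured. MiR-301a, at 11.7%, lies at the lower edge, below miR-93 at 22.7% and the other 2 members at 33.5% and 43.5%.

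The miRNAs whose profile was most like that of a member were found by Pearson's r of log2(RPM + 1) over the 8 libraries, among 125 miRNAs outside the family. These libraries come from 4 cows and share them between sample types, so r is a description. MiR-130b was most like miR-421 (r = 0.971) and miR-30e-5p (r = 0.965). MiR-130a was most like miR-200a (r = 0.926) and miR-125b (r = 0.879). For miR-301a, whose level hardly varied, the highest values were those of miR-6529a (r = 0.869) and miR-2419-5p (r = 0.859). Pearson's r does not compare how far levels move. MiR-6529a ran from 1427 to 3553 RPM and miR-2419-5p from 158.5 to 1201 RPM, both wider than miR-301a. Within the family r was 0.672 for the neighbours miR-130b and miR-301b and -0.19 for the neighbours miR-301a and miR-454, the latter limited by few reads. Across loci it was 0.82 for miR-301a and miR-301b, 0.728 for miR-301a and miR-130b, and 0.339 for miR-130a and miR-130b. The values of miR-130a with miR-301a and with miR-301b were negative, at -0.247 and -0.307. Without cow 1 the values for the named miRNAs outside the family were 0.886 to 0.982 over 6 libraries. Within the family they were then 0.728 for miR-130b and miR-301b, 0.838 for miR-301a and miR-301b, 0.883 for miR-301a and miR-130b, and 0.232 for miR-130a and miR-130b. For miR-130a with miR-301a and with miR-301b they were -0.184 and -0.442.

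A further 5 miRNAs have seeds that overlap that of the family with an offset of 1 base, namely miR-148a, miR-148b and miR-152 and, on the other side, miR-19a and miR-19b of the miR-17-92 cluster. As in the family, none passed both thresholds of limma in either direction. MiR-148a, miR-148b and miR-152 were higher in the serum of 4 of 4 cows, with log2 FC of 0.44, 0.76 and 0.65 (FDR = 0.179, 0.13 and 0.096). The levels of miR-152 lay between 588 and 741 RPM for sera and between 351 and 478 RPM for exosomes, without overlap, and those of miR-148b did not overlap either. Of the tested miRNAs 11.8% had all sera above all exosomes in this way, and 2.47% the reverse. MiR-19a and miR-19b were higher in the exosomes of 3 of 4 cows, with log2 FC of -0.59 and -0.23 (FDR = 0.196 and 0.508). With both libraries of cow 1 left out, their log2 FC shrank to -0.33 and -0.10. Those of miR-148a, miR-148b and miR-152 were then 0.54, 0.84 and 0.77. In the blocked fits, 3 of the 5 were higher in sera and 1 higher in exosomes by limma's FDR alone, and 1 and 2 by edgeR, none of them past the limits on FC. Higher in exosomes in these fits were 3.29% (limma) and 6.58% (edgeR) of all miRNAs by FDR alone, and 1.64% and 3.56% with the FC limit. Blocked limma without cow 1 had 3 of the 5 higher in sera and 0 higher in exosomes by FDR alone. Of all 365 miRNAs it had 94 and 13. Between cows, miR-148a passed the F-test (FDR = 0.0288) and the other 4 did not.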

How the data were processed

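Small RNA libraries of 4 sera and 4 exosome samples were analysed. Reads were filtered on quality with CASAVA 1.8 and, after adaptor trimming, matched by the authors to known bovine miRNAs (miRBase) in sRNAbench, 1 library at a time. The authors deposited RPM values, which sum to 999998 to 1000002 in each library. Reads were recovered from the RPM steps, and 100% of values were whole within 0.06 RPM. How reads matching more than 1 member were assigned is not given in the sources used here, and no 2 members had identical values.

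Expressed miRNAs (365 of 445 with reads) had more than 1 RPM in at least 2 libraries of a sample type. Log2(RPM + 1) was tested with limma 3.58.1 (trend) and Benjamini-Hochberg adjustment over all 365 miRNAs. Tests on recovered reads (edgeR 4.0.16 quasi-likelihood, DESeq2 1.42.0), other pseudocounts, filters and scalings, the cow as a replicate block and left-out libraries were alternatives. Limma, edgeR with TMM and DESeq2, each with and without the block, were also run on simulated data. The other alternatives were not. The planted differences were larger than those of the members, and recovery was scored only above a minimum of simulated reads. These runs therefore do not show whether differences as small as those of the members would be found. The numbers in the labels and the study's methods pair the libraries by cow. Deviations of 128 miRNAs correlated with mean r = 0.806 within cows (lowest 0.74) and -0.24 between cows (highest 0.195). Deviations are taken from the mean of the sample type, so a high r within cows brings with it a negative mean r between cows.

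Named are the 5 members, 5 miRNAs with overlapping seeds, miR-93, the 2 miRNAs most like each member with at least 10 reads in every library, and the marker lists. MiR-206, miR-122 and the 4 striated muscle miRNAs that passed the filter were named after their values were seen. The members and lists were chosen with earlier results of these data known. R 4.3.3 and Python 3.11.15 were used. Sequences and coordinates of the members were not used here.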

Additional observations from a re-analysis of the deposited data

Results flagged for a closer look

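In 34 groups of 4 libraries (levels, ratios and shares of the members in sera or in exosomes), 1 value lay far from the other 3 relative to the range of its group. It was the share of miR-301a in the family in the serum of cow 2, 48.2%, against 37.5%, 38.9% and 37.5% in cows 1, 3 and 4. Chance marks about 1 in 20 such groups. The exosomes of cow 2 had the highest such share of the exosome libraries, 52.3%. In the serum of cow 2 the level of miR-301a was 1264 RPM, within the range of the other sera, while miR-130a (420 RPM) and miR-130b (778 RPM) were at their lowest among the sera.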

How the results depend on the processing

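The number of members past both thresholds was 0 in 22 of 23 alternatives and ranged from 0 to 1 over the left-out libraries. The number of members that differed between cows was 2 or 3 in all 17 alternatives with this test. The summed level of the family was higher in sera in all 10 alternatives, by 177 RPM after rescaling with TMM and by 383 to 777 RPM with 1 library left out, against 597 RPM.

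Over all miRNAs, limma called 11 towards sera and 5 towards exosomes. After rescaling RPM with TMM 6 were higher in sera. EdgeR with TMM gave 6 and 8, and DESeq2 3 and 13. A replicate block for the cow gave 29 in sera by limma and 13 in exosomes by edgeR with TMM. Some fits were chosen after seeing the data. With the block these gave 24 and 10 (edgeR with library totals), 6 and 14 (DESeq2) and 8 in exosomes (limma after rescaling). Limma without both libraries of cow 1, also chosen then, gave 34 and 9 with the block and 12 and 4 without it. Leaving out 1 library gave 7 to 18 in sera and 3 to 5 in exosomes, with the lowest number in sera without the serum and the highest without the exosomes of cow 3, and 3 in exosomes without the serum of cow 2 or 4. Of all miRNAs 93 differed between cows, and 60 to 123 with 1 library left out, the fewest without the exosomes of cow 4. The causes were not tested. The block changed the FDR call of miR-130a by limma and edgeR and of miR-130b by limma and by edgeR with library totals, and of no other member.

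Rescaling with TMM moved the median log2 FC of all miRNAs from 0.57 to 0.38. Log2 FC ranged from 0.45 to 1.04 for miR-130a and from 0.07 to 0.57 for miR-130b. It changed sign for miR-301a (-0.23 to 0.18), miR-301b (-0.39 to 0.58) and miR-454 (-0.76 to 0.02), without a call. The CV of miR-130b fell from 33.5% to 21.9% after rescaling. Few reads limit miR-454 and, in exosomes, miR-301b.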
